A study of Drosophila melanogaster with 51 samples.

Results

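MED26, Crk, Zip102B and ATPsynbeta are 4 protein-coding genes of chromosome 4 of Drosophila melanogaster that were picked for the large share of their bodies under deposited H3K9me3 or HP1 peak intervals. They are 4 of 80 protein-coding genes, and of 114 annotated genes of any kind, that the RefSeq gene table places on this chromosome. They were chosen by their covered shares of the body and of both ends, so those shares are given here as a description with no test. The 4 genes are not the 4 highest of any one ranking. By the mean of the H3K9me3 and HP1 shares MED26 ranked 1, ATPsynbeta 2, Zip102B 6 and Crk 19 of 80. With only peaks of −log10 q of at least 10 the ranks were 7, 1, 3 and 17, and with the intervals of each call joined 4, 7, 1 and 14, in the same order of genes. ND-49, which encodes a subunit of respiratory complex I, ranked between ATPsynbeta and Zip102B with a mean of 64.6%, and myo, CG46466, eIF4G1 and Ephrin had means of 59.0%, 58.0%, 55.5% and 51.0%, all above the 44.6% of Crk.

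Chromosome 4 is a small chromosome that is packaged largely as heterochromatin and still carries active genes. Methylation of histone H3 at lysine 9 forms the binding site for the chromodomain of HP1a, and on the fourth chromosome this mark depends largely on the methyltransferase Setdb1 (the egg gene). HP1a and the mark are known to lie over the transcribed bodies of many of its genes, often with less at active promoters. MED26 encodes a subunit of Mediator, the complex that links transcription factors to RNA polymerase II. Crk encodes an adaptor protein with SH2 and SH3 domains that passes signals from phosphorylated tyrosines to small GTPases. Zip102B encodes a member of the ZIP family of zinc transporters, and ATPsynbeta the catalytic beta subunit of the mitochondrial ATP synthase.

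The series profiled wing imaginal discs, the larval tissue of the adult wing, of wandering female third-instar larvae raised at 25 °C, with CUT&RUN: an antibody tethers a nuclease to chromatin, and the DNA it cuts free is sequenced. Its 51 libraries, each from 20 or more discs, used antibodies to HP1a (16 libraries), H3K9me3 (15), GFP (14) and H3K27me3 (6). The labels name the lines yw, HWT, K9R, HP1a-control, HP1a-chromo, GFP-HP1a/+, GFP-HP1a/GFP-HP1a, CrGFP-HP1a and CrGFP-HP1chromo. The anti-GFP libraries are also labelled sup or pel. The values here come from 3 peak lists deposited for the series as a whole. Of the 216 H3K9me3 intervals on chromosome 4, 213 carry the name HWT and replicate 1, and 3 carry the name ywdf. Per the labels, HWT larvae lack the endogenous histone gene cluster (∆HisC, with twi-Gal4 and a UAS-EYFP reporter used to select larvae) and carry a replacement transgene with wild-type histone H3. All 277 HP1 intervals on the chromosome are named ywdf and merge. The meaning of ywdf is not given in the sources used here. The H3K9me3 and HP1 intervals thus mostly carry different names, and whether the same larvae gave both is not known. The lowest −log10 q on the chromosome was 1.38 for H3K9me3 and 5.02 for HP1, so the 2 lists reach down to unlike limits. Genotypes are not compared. Because the lists give intervals and not library values, depth is unknown, replicate error cannot be stated and no difference below was tested. For the same reason, a base outside the listed intervals is not shown to lack H3K9me3 or HP1.

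MED26 lies on chromosome 4 at 778516 to 788978 of the dm6 build and is 10463 bp long. Its H3K9me3 cover consisted of 3 intervals, all parts of 1 call, at bases 256 to 1935, 2191 to 7222 and 8787 to 10463 counted from the low-coordinate end of the gene. The middle interval alone was 5032 bp wide and held 60.0% of the covered bases. HP1 cover was broken into 7 intervals from 4 calls, between 63 and 1910 bp long within the gene, and the longest lay at bases 8554 to 10463. The histone mark thus lay in fewer and longer pieces than HP1. Its longest gap was 1564 bp, at bases 7223 to 8786, and 1331 bp of this, at bases 7223 to 8553, were under neither list. Neither list covered the bases before base 256.

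Crk, at 210224 to 213165, is 2942 bp long and was covered from both sides. H3K9me3 lay over bases 1 to 606 and again over bases 1588 to 2942, both parts of 1 call that spans the gene. HP1 lay over bases 1 to 573 and, at the other end, over only the last 89 bases, 2854 to 2942. A stretch of 981 bp between, at bases 607 to 1587, was under neither list. The low-coordinate end was thus under both lists and the high-coordinate part mainly under H3K9me3. All of these intervals ran on beyond the gene: the larger part of each HP1 interval, 1540 and 1707 bp, lay outside it.

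Zip102B, at 310930 to 314087, is 3158 bp long. HP1 lay over bases 1 to 1661 and 2674 to 3158, and both intervals were parts of 1 call. H3K9me3 lay over bases 1 to 1111 and, near the other end, over a piece of 23 bp and another of 329 bp at bases 2830 to 3158. The low-coordinate part of the gene was therefore under both lists, and the 1012 bp from base 1662 to 2673 under neither. The 329 bp piece is one of the 3 ywdf intervals of H3K9me3 on the chromosome. Without these, 35.9% of the Zip102B body was under H3K9me3 instead of 46.3%, and 4.60% of its high-coordinate 500 bp instead of 70.4%.

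ATPsynbeta, at 1031484 to 1034917, is 3434 bp long and had HP1 over most of its length. HP1 lay over bases 1 to 620, 994 to 2107 and 2305 to 3434, all parts of 1 call. H3K9me3 lay over bases 1 to 620 and 2470 to 3434, leaving 1849 bp in the middle without a listed H3K9me3 interval. The summit offset of the call over bases 1 to 620 exceeds its only listed interval, so that call may run further than listed. Both lists stopped at the same base, 1032103, and the 373 bp that followed were under neither. The first 274 bp of the gene are shared with CG11076, whose cover cannot be separated from that of ATPsynbeta there.

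**Figure D1:**
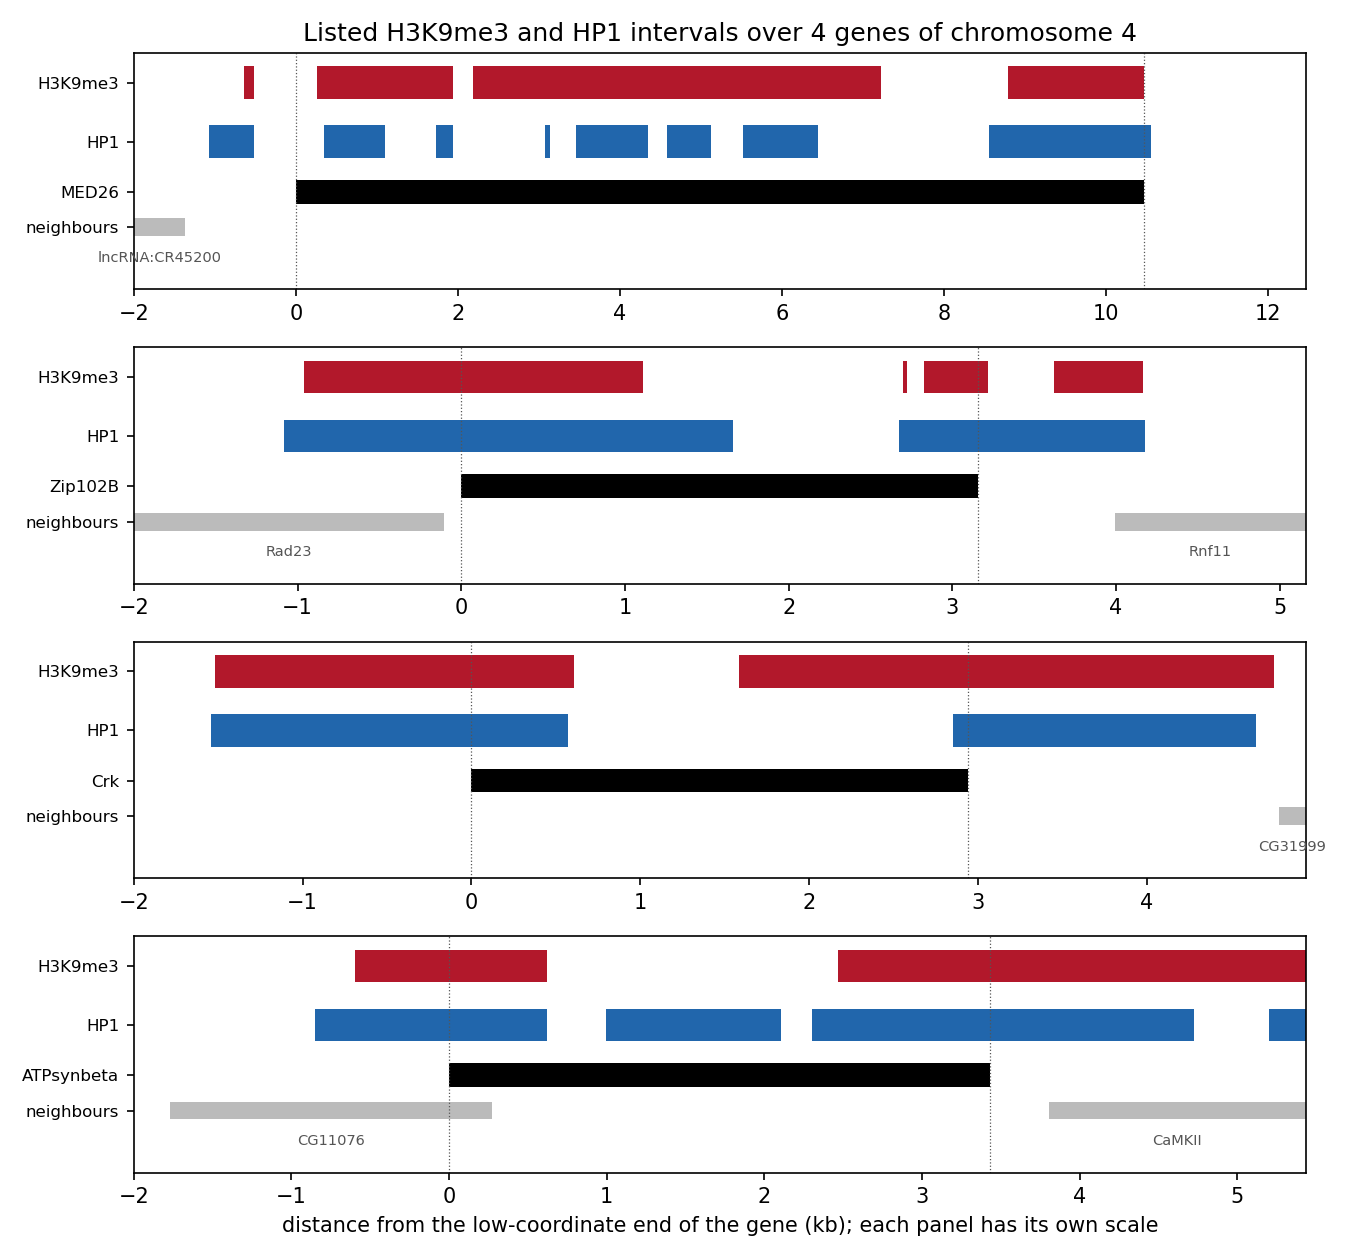
Listed H3K9me3 intervals (red) and HP1 intervals (blue) over MED26, Zip102B, Crk and ATPsynbeta (black bars) and their neighbours (grey), against distance in kb from the low-coordinate end of each gene. MED26 shows 3 H3K9me3 and 7 HP1 intervals inside the gene, and in Zip102B, Crk and ATPsynbeta intervals of both lists run across both gene ends.

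The body shares were above the chromosome's median in both lists for all 4 genes, but only slightly so for HP1 in Crk. H3K9me3 covered 80.2% of MED26, 66.7% of Crk, 46.3% of Zip102B and 46.2% of ATPsynbeta, ranks 1, 4, 20 and 21 of 80, beside a median of 10.4% over all protein-coding genes of the chromosome. HP1 covered 83.4% of ATPsynbeta, 68.0% of Zip102B, 50.7% of MED26 and 22.5% of Crk, ranks 3, 5, 9 and 39, beside a median of 19.5%. Crk was thus near the middle of the chromosome for HP1 and near the top for H3K9me3. With the intervals of each call joined, its HP1 rank was 50. At least 50% of the body lay under H3K9me3 in 2 of the 4 genes, where 20% of all 80 genes passed this mark, and under HP1 in 3 of the 4, where 11.2% did. At a −log10 q of at least 10 the HP1 share of MED26 was 25.5%, which leaves 2 of the 4. At least 1 bp was covered in all 4 genes by each list, beside 70% of the 80 genes for H3K9me3 and 88.8% for HP1. These counts follow from how the genes were picked.

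The 3 smaller genes are short for this chromosome. ATPsynbeta, Zip102B and Crk ranked 66, 68 and 69 of 80 by length, and MED26 39, with a median of 10090 bp over the 80 genes. Over the 27 other protein-coding genes between 2942 and 10463 bp, the median share was 24.0% for H3K9me3 and 25.4% for HP1. The HP1 share of Crk, 22.5%, was below the latter. The number of RefSeq transcripts was 2 for MED26, 3 for ATPsynbeta, 4 for Zip102B and 7 for Crk, around a median of 3.

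**Figure D2:**
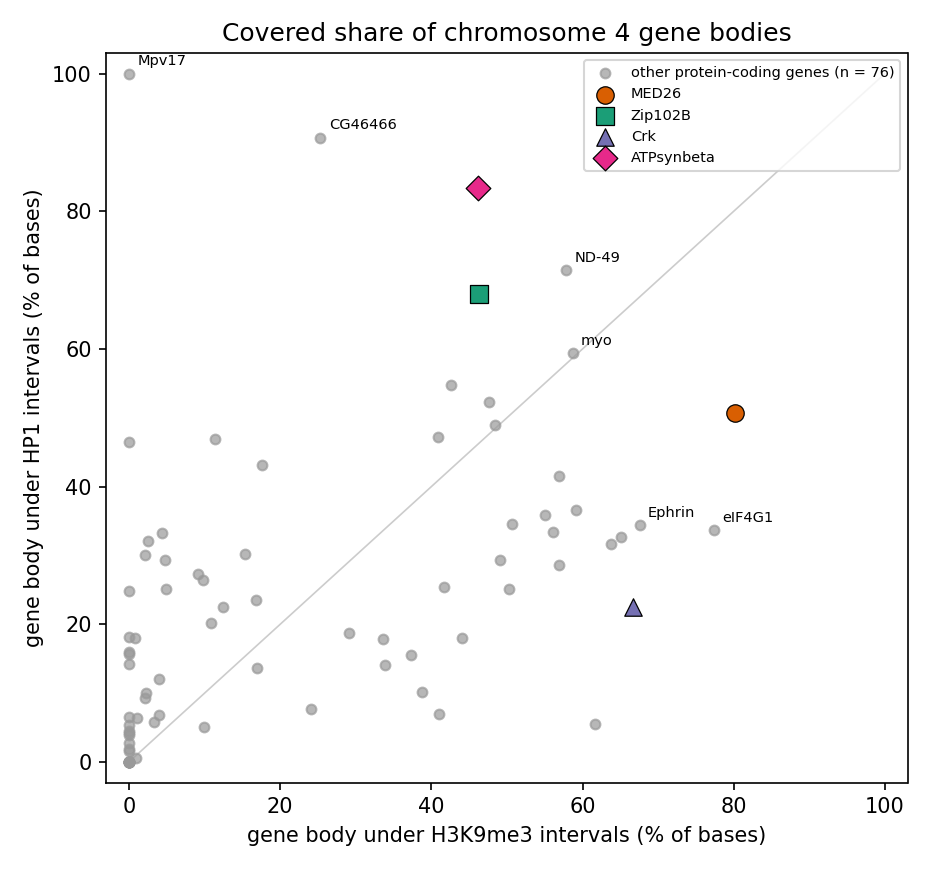
Share of the gene body under HP1 intervals against the share under H3K9me3 intervals, both in % of bases, for the 80 protein-coding genes of chromosome 4; the grey line marks equal shares. MED26 (80.2% and 50.7%) and Crk (66.7% and 22.5%) lie on the H3K9me3 side of the line, and ATPsynbeta (46.2% and 83.4%) and Zip102B (46.3% and 68.0%) on the HP1 side. The lists differ in source name and in lowest −log10 q, so the side does not compare amounts of H3K9me3 and HP1.

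Gene ends were compared with gene interiors, since active promoters on this chromosome are known to carry less of both marks. The gene table used here gives no strand, so the ends are named by coordinate and not as start and end of transcription. H3K9me3 covered 100% of the low-coordinate 500 bp of Crk, Zip102B and ATPsynbeta and 49.0% of that of MED26. At the high-coordinate 500 bp it covered 100% of MED26, Crk and ATPsynbeta and 70.4% of Zip102B. HP1 covered 100% of the low-coordinate end of Crk, Zip102B and ATPsynbeta and 31.4% of that of MED26, and at the other end 100% of MED26 and ATPsynbeta, 97.0% of Zip102B and 17.8% of Crk. Both ends of all 4 genes were touched by both lists. Over the 80 genes, both ends were touched by H3K9me3 in 27.5% and by HP1 in 41.2%. At least 50% of both ends lay under H3K9me3 in 3 of the 4 genes and 11.2% of the 80. For HP1 this held in 2 of the 4 and 25% of the 80. Fully covered ends were common: HP1 covered 100% of the low-coordinate end in 24 of the 80 genes and of the high-coordinate end in 26. For H3K9me3 these counts were 17 and 12.

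Interiors were covered differently in MED26 and in the 3 shorter genes. Between the end windows, H3K9me3 covered 80.8% of MED26 but 49.5% of Crk, 28.3% of Zip102B and 24.0% of ATPsynbeta. In the last 3 the listed share was higher at both ends than in the interior, and in MED26 intervals also lay over most of the interior. With HWT intervals alone the high-coordinate end of Zip102B, at 4.60%, was below its interior. The contrast also depends on gaps within calls. With the intervals of each call joined, H3K9me3 covered 100% of the bodies of MED26 and Crk. It then covered 96.7% of the Zip102B body but 79% of its high-coordinate end, and the 46.2% of ATPsynbeta did not change. The median interior share over the 77 genes of at least 1500 bp was 10.1%. HP1 covered 76.6% of the interior of ATPsynbeta, 53.8% of that of Zip102B, 49.1% of that of MED26 and 3.76% of that of Crk, with a median of 16.9%. The interior of Crk thus held few bases under listed HP1 intervals, while that of ATPsynbeta was mostly under them. The end shares depended on the window. At the low-coordinate end of MED26 both lists covered 0% of the outermost 200 bp, and H3K9me3 74.5% and HP1 65.7% of the outermost 1000 bp. At the high-coordinate end of Crk, HP1 covered 44.5% of the outermost 200 bp and 8.9% of 1000 bp. In the wider window the low-coordinate shares fell to 60.6% for H3K9me3 and 57.3% for HP1 in Crk, and to 62% and 62.7% in ATPsynbeta. At the high-coordinate end of Zip102B they fell to 35.2% for H3K9me3 and 48.5% for HP1. Cover in these 3 genes thus thinned out within the first 1000 bp at the ends named.

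**Figure D3:**
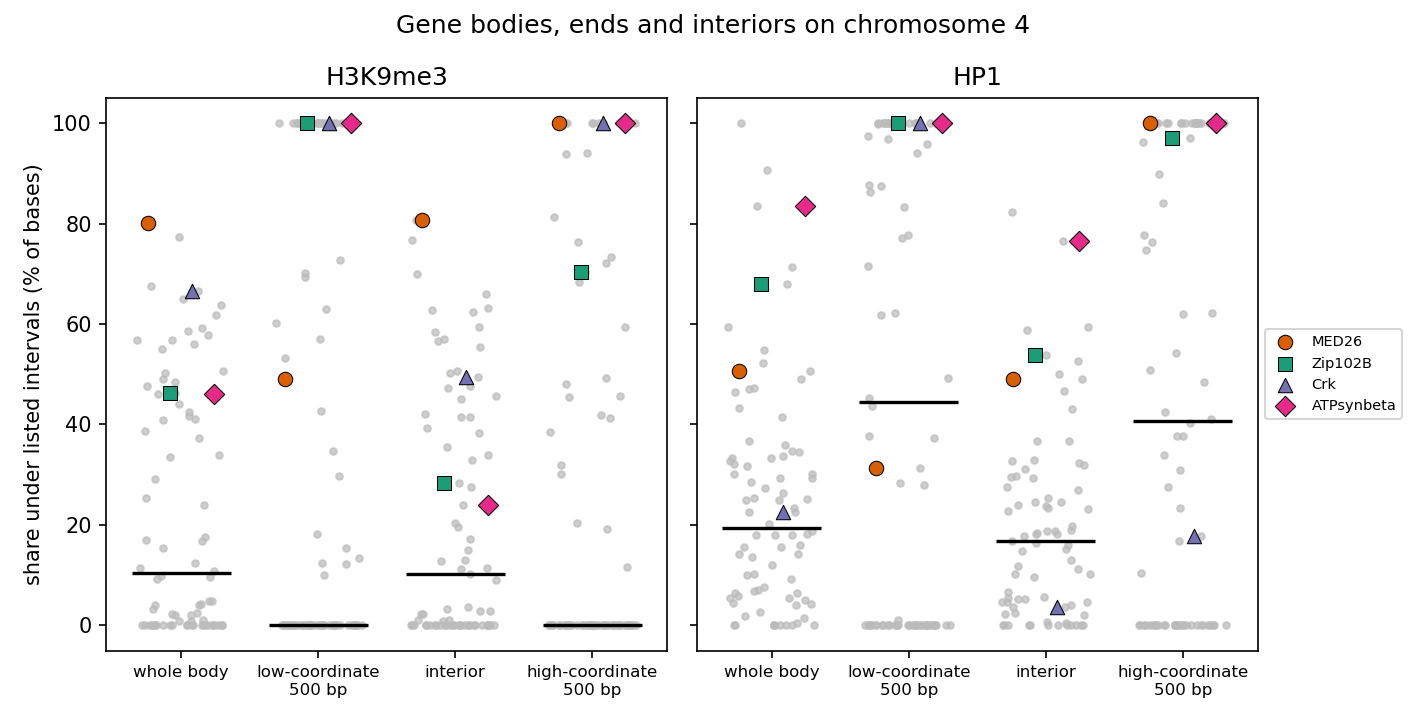
Share of bases under H3K9me3 (left) and HP1 (right) in the whole body, the 500 bp at each end and the interior, for MED26, Zip102B, Crk and ATPsynbeta (coloured symbols) and all protein-coding genes of chromosome 4 (grey points; black line, median; 80 genes, or 77 for the interior). Most ends of the 4 genes are at or near 100%, while their interiors range from 24.0% to 80.8% for H3K9me3 and from 3.76% to 76.6% for HP1.

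In each of the 4 genes the smaller of the 2 covers lay within, or almost within, the larger one. All 662 HP1 bases of Crk were also under H3K9me3, and 95.5% of the HP1 bases of MED26 were. In the reverse direction, all 1463 H3K9me3 bases of Zip102B and all 1585 of ATPsynbeta were also under HP1. Over the chromosome, HP1 cover lay wholly under H3K9me3 in 2 of the 71 protein-coding genes with HP1, and H3K9me3 cover wholly under HP1 in 10 of the 56 with H3K9me3. These counts include Crk, Zip102B and ATPsynbeta and leave out nearly complete cases such as MED26. By the share of HP1 bases also under H3K9me3, MED26 ranked 4 of the 71, below eIF4G1 at 97.9%. Bases under both lists made up 48.4% of MED26, 46.3% of Zip102B, 46.2% of ATPsynbeta and 22.5% of Crk. The corresponding share of all protein-coding bodies pooled was 8.41%, and ND-49 had the largest share of any gene, 57.9%. H3K9me3 without HP1 covered 44.2% of Crk and 31.7% of MED26, and HP1 without H3K9me3 covered 37.2% of ATPsynbeta and 21.6% of Zip102B. MED26 was the only one of the 4 with both kinds, having 240 bp of HP1 without H3K9me3.

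**Figure D4:**
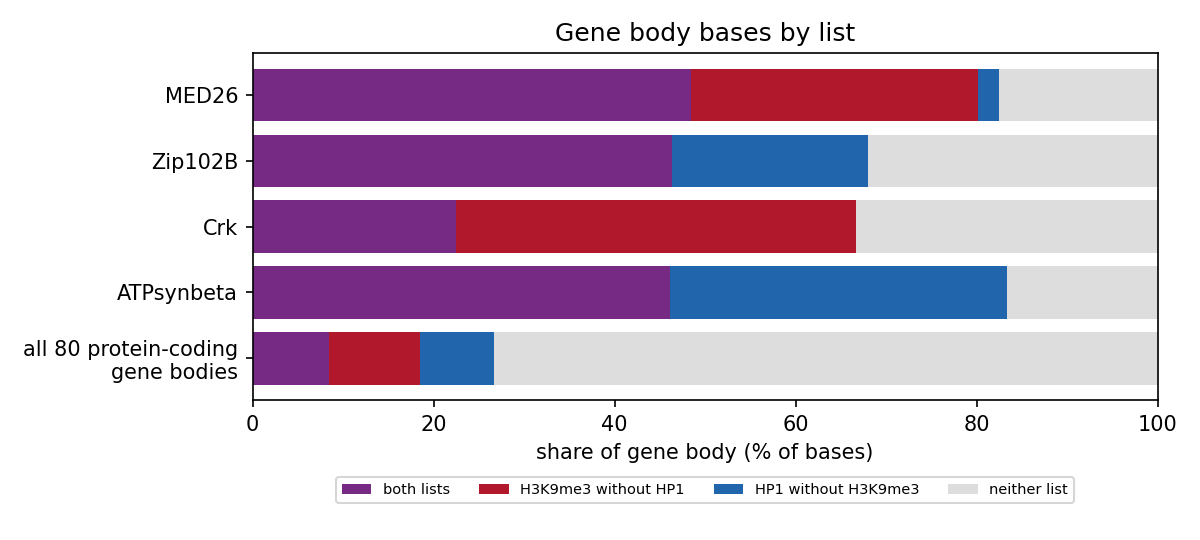
Share of gene body bases under both lists, under H3K9me3 without HP1, under HP1 without H3K9me3 and under neither, for MED26, Zip102B, Crk, ATPsynbeta and the pooled bodies of all 80 protein-coding genes of chromosome 4. Bases under neither list made up 16.6% to 33.3% of the 4 genes and 73.3% of the pooled bodies.

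The authors' fold enrichment is the ratio of observed to expected signal at the highest point (summit) of a call. It describes a whole call, can be set only against other calls of the same list, and the summit may lie outside the gene. Among 121 H3K9me3 calls on chromosome 4, with a median fold of 7.02, the call over both ends of Crk reached 20.6 and ranked 5. The call at the high-coordinate end of ATPsynbeta reached 19.8 and ranked 7, that of MED26 15.5 and ranked 15, and the HWT call of Zip102B 11.97 and ranked 27. Each of the 6 H3K9me3 calls in these genes was above the median, the lowest being the ywdf call of Zip102B at 7.67. For that call, and for the call at the low-coordinate end of ATPsynbeta at 11.6, the summit offset exceeded the only listed interval.

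The HP1 calls spread more widely. Among 141 HP1 calls, with a median fold of 4.66, the long call that includes ATPsynbeta reached 30.9 and ranked 3. Counted from the first listed base of this call, its summit falls in the part from 1026418 to 1029448, below the gene. Whether the whole call begins at that base is not known, so the value cannot be taken as a measure of HP1 over ATPsynbeta itself. The call at the low-coordinate end of Crk reached 18.6 and that at its high-coordinate end 5.85. The call at the high-coordinate end of MED26 reached 12.5 and that of Zip102B 11.6. The other 3 HP1 calls of MED26 were below the median, at 4.24, 3.22 and 2.64, the last ranking 140. MED26 therefore combined a high HP1 call at one end with low calls in its body. Their −log10 q-values were 19.9, 7.81 and 5.55 against 99.6 for the end. With only peaks of −log10 q of at least 10 kept, HP1 covered 25.5% of MED26 and its HP1 rank fell from 9 to 29. Under the same limit the body shares of Crk, Zip102B and ATPsynbeta did not change in either list, nor did the H3K9me3 share of MED26.

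**Figure D5:**
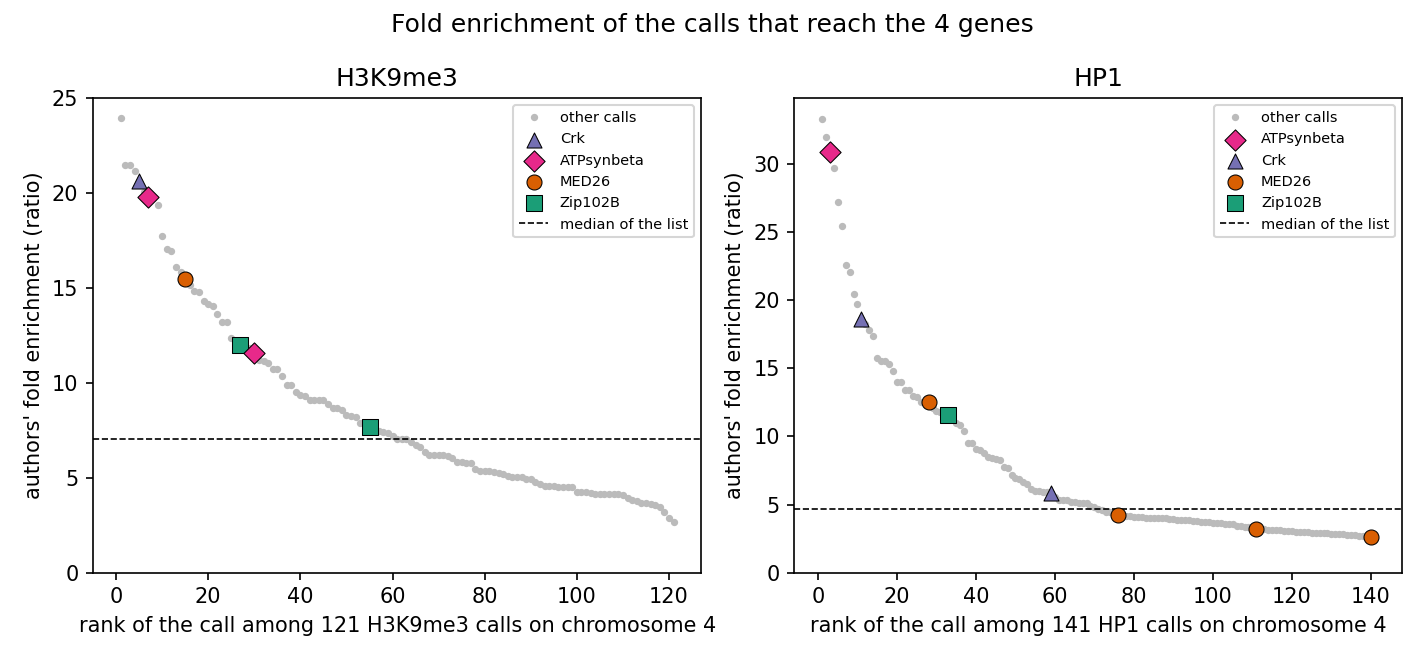
Authors' fold enrichment (ratio) of each H3K9me3 call (left) and HP1 call (right) on chromosome 4 against its rank, with the calls that reach MED26, Zip102B, Crk and ATPsynbeta as coloured symbols and the list's median as a dashed line. The long HP1 call that includes ATPsynbeta, at 30.9 with a summit that may lie outside the gene, is near the top of its list. HP1 calls inside MED26, down to 2.64, are near the bottom.

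The surroundings of the 4 genes differed as well. Intervals of Crk, Zip102B and ATPsynbeta ran past both gene ends, in part up to the neighbours. The 107 bp between Zip102B and Rad23, which encodes a ubiquitin receptor with a role in DNA repair, were wholly under both lists, as were the 370 bp between ATPsynbeta and the kinase gene CaMKII. The 1843 bp between Crk and CG31999 were under H3K9me3 over 98.3% and under HP1 over 92.6%. On its other side, the 4278 bp up to CG31998 were under H3K9me3 over 79.2% and under HP1 over 86.6%. The 835 bp from Zip102B to Rnf11 were wholly under HP1 and 52.3% under H3K9me3, whose interval over the gene end stopped after 62 bp. On the low-coordinate side of ATPsynbeta the overlapping CG11076 was under H3K9me3 over 42.6% and under HP1 over 54.8%. The 2122 bp from ATPsynbeta to Mpv17, which include most of CG11076, were under H3K9me3 over 28.1% and under HP1 over 44.1%.

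The cover of MED26 ended close to the gene on one side. At the high-coordinate end H3K9me3 ran 5 bp and HP1 94 bp past the gene. The 11457 bp up to Sox102F, a transcription factor gene whose body was under neither list, were under H3K9me3 over 2.16% and under HP1 over 1.90%. On the other side, the 1369 bp to lncRNA:CR45200 were under H3K9me3 over 9.35% and under HP1 over 40.6%. The HP1 call at this end had 3 listed parts from 775110 to 779615, on both sides of the gene border. The border itself was not covered: it lay in the gap between the parts ending at 777998 and starting at 778859. MED26 was thus flanked by little H3K9me3 cover on both sides and by little HP1 cover on the high-coordinate side.

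Some of the calls were much longer than the genes. The HP1 call of ATPsynbeta had 10 listed parts over 18710 bp, from 1026418 to 1045127, a span that also held Mpv17, a mitochondrial membrane protein gene that HP1 covered over 100% and H3K9me3 over 0% of its length. The H3K9me3 call at its high-coordinate end had 7 parts over 19736 bp, most of it over CaMKII. The H3K9me3 call of MED26 spanned 11114 bp, close to the length of the gene itself. No background region of the anti-GFP profile named yw touched any of the 4 genes or their 5000 bp flanks, and the nearest lay 61817 bp from ATPsynbeta.

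Likeness between genes was measured as the Euclidean distance over 6 values, the body and both end shares in both lists, in percentage points. ATPsynbeta was nearest to ND-49, at 16.8, and next to Zip102B, at 33.5, where the median distance to the 79 other genes was 166. Zip102B was in its turn nearest to ND-49, at 32.1, and next to ATPsynbeta. Crk was nearest to the kinase gene CaMKI, at 23.1, and to eIF4G1, which encodes a scaffold of translation initiation, at 36.7. MED26 had no close match: its nearest genes were Rad23 at 50.2 and CG11076 at 69.4, and the other 3 genes of the set were 97.6 to 123 away. These distances use the values by which the genes were chosen and are a description.

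The partners of these genes were mostly uncovered, like most genes of the genome. Of 28 other Mediator genes, 14 other genes of Crk signalling, 9 other ZIP transporter genes and 13 other ATP synthase genes, none lies on chromosome 4. H3K9me3 fell in 1 of these 64 genes and HP1 in 4, beside 1.26% and 3.71% of all 13946 protein-coding genes. The gene under both was MED21, a Mediator subunit gene of 1023 bp on 3L at 25114924 to 25115946, where HP1 covered 93.5% of the body and H3K9me3 44.2%. HP1 alone fell in skd, a gene of the kinase module of Mediator, over 1.75% of its body. It also fell in Rap1, a small GTPase gene, over 12.7%, and in ATPsynC, which encodes the membrane-embedded subunit c of the synthase, over 11.4%. The median share was 0 for each of the 4 lists in each peak list, as it was over all protein-coding genes.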

How the data were processed

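The submitters' processing notes name the build dm6 and the tools MACS2 2.1.2, bedtools 2.26, SAMtools 1.10 and Bowtie2 2.3.4.1. The 3 deposited lists give intervals with a score, a fold enrichment (ratio), a −log10 q-value and a summit offset, all the authors' values per call. Several intervals can share 1 call. On chromosome 4 the summit offset exceeded the interval for 68.1% of H3K9me3 and 73.3% of HP1 intervals. How calls were combined or divided is not given in the sources used here.

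Gene positions were read from RefSeq's gene table of assembly Release 6 plus ISO1 MT (dm6), without strand, exons or sequence. Covered bases were counted with Python 3.11.15 and numpy 2.4.6, and the counting was tested on simulated intervals. Coordinates count from 1. Ends are 500 bp inside the gene. A gene counted as covered from 1 bp. Genes named are the 4 members, their neighbours, the 5 other genes with the largest mean share, the 2 genes nearest each member and covered list genes; ND-49, myo, CG46466, eIF4G1 and Ephrin are those 5, and Mpv17 and Sox102F are neighbours. Members and lists were chosen with earlier results of these data known. Alternatives were a −log10 q of at least 10, HWT intervals alone, peaks touching background regions left out, joined calls, all annotated genes, and other end windows. After the data had been seen, H3K9me3 peaks with a −log10 q of at least 5, ATPsynbeta without the bases of CG11076, and the peak alternatives for gene ends were added. No library's values were analysed, so depth per sample is unknown and no confidence interval is given.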

Additional observations from a re-analysis of the deposited data

How the results depend on the processing

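No paired analysis was possible because lists of intervals, not values of libraries, were analysed, and no replicate could be omitted. Joining the intervals of each call from its first to its last listed base closed the gaps within genes. The H3K9me3 share then became 100% in MED26 and Crk and 96.7% in Zip102B, and the HP1 share 63.1% in MED26 and 100% in Zip102B and ATPsynbeta. Joined calls put 25 of the 80 genes at 50% or more for H3K9me3, instead of 16, and 23 for HP1, instead of 9. With the intervals as listed, 23 of all 114 annotated genes were at 50% or more for HP1, a different set from the 80. With a −log10 q of at least 10 the HP1 share of MED26 was 25.5%. With HWT intervals alone the H3K9me3 share of Zip102B was 35.9%. Without the bases shared with CG11076, ATPsynbeta was 41.5% under H3K9me3 and 82.0% under HP1. The other 41 alternative values of body shares and gene counts stayed within the exact binomial 95% interval of the share, or within 1.5 times the count. Neighbouring bases are not independent, so that interval serves as a yardstick and not as an error.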

Other observations

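Among the 21 edges of HP1 intervals inside the 4 genes, 2 lay within 10 bp of an edge of the same kind in the H3K9me3 list, 1 in ATPsynbeta at the identical base and 1 in MED26. Over the whole chromosome 8 of 554 HP1 edges did so, 2 of them at an identical base. These edges were looked at after the lists had been seen.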
